A study of Mus musculus with 10 samples.

Results

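Dlx1, Dlx2, Dlx5, Dlx6, Gad1, Gad2, Sp8 and Sp9 were followed as 8 genes of the GABAergic neuroblast programme in ATAC-seq peak lists of adult mouse neural stem cell cultures. The peaks taken were those whose summit, the point of highest pileup, lay in the body of one of these genes or within 50 kb of it. Overlapping peaks of the 10 libraries were merged, which gave 58 member regions of 137454 in all, in 6 windows because the paired Dlx genes share one. Of the 58 member regions, 16 had a peak in 1 library, 8 in 2 to 4, 13 in 5 to 9 and 21 in all 10 libraries. Regions called in 5 libraries or more could be tested, which were 34 members of 70627 in all.

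ATAC-seq marks open chromatin through a transposase that inserts adapters where DNA is accessible. Cultures came from the subependymal zone (SEZ) of 10-week-old mice on a C57BL/6J background, either wild type (WT) or p27KO, which carry a mutant Cdkn1b, the gene of the cyclin-dependent kinase inhibitor p27. Proliferating cultures (PRO) were neurospheres kept for 3 days with the mitogens EGF (20 ng/ml) and FGF (10 ng/ml), and differentiating cultures (DIFF) had 2 days on Matrigel in medium with FGF and then 24 h with 2% serum and no mitogen. Each library was made from 50000 cells, with 3 for PRO and 3 for DIFF in WT and 2 for each condition in p27KO. PRO and DIFF differed in substrate and serum as well as in mitogens, and these cannot be told apart.

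Newborn neuroblasts of the SEZ migrate to the olfactory bulb and become interneurons that release GABA. Dlx genes encode homeodomain transcription factors of this lineage, and they lie in convergently transcribed pairs whose intervening DNA is known from the embryonic forebrain to hold enhancers. Sp8 and Sp9 encode zinc finger factors of neuroblasts and olfactory bulb interneurons, and Gad1 and Gad2 encode the enzymes that make GABA from glutamate.

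The lists held 57534 to 91801 peaks, and the reads behind them are unknown, so the absence of a peak means that none was called at that depth. WT DIFF replicate 3 stood apart with 88738 peaks, against 61783 and 57534 in the other WT DIFF libraries. The Cdkn1b promoter had a peak in all 6 WT lists and in 2 of 4 p27KO lists. Peaks in the body of Cdkn1b were called in all 6 WT lists and in 0 of 4 p27KO lists, which matches the titles and goes against a free-text label that names WT cells for p27KO. The Y-linked promoters of Ddx3y, Uty and Eif2s3y likewise had peaks in all 6 WT lists and none of the 4 from p27KO, so genotype cannot be told apart from sex. Promoters of all 7 neural stem cell markers and all 5 astrocyte markers had a peak in all 10 libraries, as did 4 of 7 oligodendrocyte lineage, 3 of 5 neuronal, 3 of 5 microglial, 1 of 3 excitatory neuron, 1 of 3 ependymal and 0 of 4 endothelial markers. Within these lists Dcx of neuroblasts had a promoter peak in 1 of 10 libraries while Tubb3, Stmn2 and Snap25 had one in all 10, and Cx3cr1 of microglia in 0 of 10 while P2ry12, Csf1r and Aif1 had one in all 10. Pecam1 and Tek of endothelium had none. These counts took in peaks beside the 1 region nearest to a start, which alone was tested. That region had no peak in p27KO DIFF replicate 1 for Stmn2 and S100b. It had none in p27KO PRO replicate 2 for Csf1r, or in WT DIFF replicates 1 and 3 for Aqp4. No marker promoter was called between PRO and DIFF (limma, lowest adjusted p = 0.0828 in WT). In WT an unadjusted p under 0.05 was reached by 2 of 4 tested microglial and 2 of 5 oligodendrocyte lineage markers. It was also reached by 1 of 4 astrocyte, 1 of 4 neuronal, 0 of 7 neural stem cell and 0 of 2 ependymal markers. In p27KO 3 of 4 microglial and 2 of 7 neural stem cell markers reached it, and none in the other lists. Among microglial markers the differences in score, DIFF minus PRO, were -0.79 and -0.82 in WT and p27KO for P2ry12, and -0.66 and -0.96 for Tmem119. They were 0.66 and 1.13 for Csf1r, and 0.14 and -0.18 for Aif1. The part of these markers in the results was not tested. The cultures are mixtures, and a smaller share of a cell type cannot be told apart from less open chromatin per cell.

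The member regions are shown here through 8 sequences of 300 bases around their summits, on the plus strand of GRCm38. They are the 3 regions that changed in WT, the other region that had peaks in every PRO library and in no DIFF library, the region between Dlx1 and Dlx2, the most enriched distal regions of both Dlx windows, and the most enriched region of the Sp8 window. Capitals mark matches on either strand to TAATTA (homeodomain core), CAGCTG (E-box), TGANTCA (AP-1), TTGGCA (NFI) or ACAATG (SOX).
Sp8 upstream region, chr12:118814580-118814879, intergenic: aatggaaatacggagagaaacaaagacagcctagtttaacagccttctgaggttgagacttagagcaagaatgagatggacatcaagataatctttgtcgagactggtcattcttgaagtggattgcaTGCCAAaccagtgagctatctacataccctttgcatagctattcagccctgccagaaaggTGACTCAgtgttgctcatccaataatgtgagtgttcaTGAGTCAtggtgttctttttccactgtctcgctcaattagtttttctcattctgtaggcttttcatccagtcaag
Gad2 downstream region, chr2:22724237-22724536, intergenic: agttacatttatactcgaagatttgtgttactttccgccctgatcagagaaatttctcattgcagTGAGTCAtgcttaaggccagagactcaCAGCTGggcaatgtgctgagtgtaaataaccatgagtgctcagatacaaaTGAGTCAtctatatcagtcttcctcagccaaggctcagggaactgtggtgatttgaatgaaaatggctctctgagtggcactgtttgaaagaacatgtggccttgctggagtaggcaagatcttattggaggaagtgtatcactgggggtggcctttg
Sp8 coding exon, chr12:118848564-118848863: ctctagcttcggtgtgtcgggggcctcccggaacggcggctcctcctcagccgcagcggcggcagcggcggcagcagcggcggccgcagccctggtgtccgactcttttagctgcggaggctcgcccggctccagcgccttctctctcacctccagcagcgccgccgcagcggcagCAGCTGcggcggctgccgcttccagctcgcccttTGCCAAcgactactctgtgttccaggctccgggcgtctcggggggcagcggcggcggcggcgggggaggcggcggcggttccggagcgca
Gad2 intron, chr2:22670346-22670645: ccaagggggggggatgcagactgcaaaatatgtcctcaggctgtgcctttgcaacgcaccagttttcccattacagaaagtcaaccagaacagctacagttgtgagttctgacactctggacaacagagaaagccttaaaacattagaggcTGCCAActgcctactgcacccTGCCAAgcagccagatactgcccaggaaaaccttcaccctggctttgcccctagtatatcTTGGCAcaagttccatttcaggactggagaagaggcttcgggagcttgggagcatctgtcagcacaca
Between Dlx1 and Dlx2, chr2:71543014-71543313: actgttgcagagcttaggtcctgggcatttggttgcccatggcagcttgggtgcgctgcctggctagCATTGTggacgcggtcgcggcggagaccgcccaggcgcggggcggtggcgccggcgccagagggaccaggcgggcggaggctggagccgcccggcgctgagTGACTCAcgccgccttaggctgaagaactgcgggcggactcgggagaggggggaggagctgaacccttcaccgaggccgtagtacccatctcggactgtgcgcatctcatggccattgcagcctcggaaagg
Dlx2 upstream region, chr2:71581069-71581368, intergenic: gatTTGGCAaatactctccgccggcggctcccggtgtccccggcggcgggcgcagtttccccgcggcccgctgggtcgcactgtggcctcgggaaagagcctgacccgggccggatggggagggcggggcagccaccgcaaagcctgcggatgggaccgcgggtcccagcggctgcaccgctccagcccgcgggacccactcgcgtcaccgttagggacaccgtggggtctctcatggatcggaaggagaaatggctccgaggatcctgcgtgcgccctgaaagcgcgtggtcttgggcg
Dlx5 upstream region, chr6:6915156-6915455, intergenic: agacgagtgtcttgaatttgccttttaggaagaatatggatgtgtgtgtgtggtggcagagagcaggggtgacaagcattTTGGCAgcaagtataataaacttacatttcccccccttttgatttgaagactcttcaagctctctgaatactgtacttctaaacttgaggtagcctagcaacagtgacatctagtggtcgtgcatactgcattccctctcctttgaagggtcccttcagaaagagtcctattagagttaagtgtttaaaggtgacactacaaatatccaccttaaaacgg
Sp8 downstream region, chr12:118855137-118855436, intergenic: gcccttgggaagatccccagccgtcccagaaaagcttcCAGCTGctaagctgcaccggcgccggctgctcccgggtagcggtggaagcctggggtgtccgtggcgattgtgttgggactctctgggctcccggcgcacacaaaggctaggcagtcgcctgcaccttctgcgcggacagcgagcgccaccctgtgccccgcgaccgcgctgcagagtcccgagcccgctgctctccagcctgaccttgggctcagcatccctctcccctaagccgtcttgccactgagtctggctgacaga

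Of the tested member regions, 31 were called in neither direction between PRO and DIFF cultures of WT. There, 2 of the 34 tested regions fell, both at Sp8, and 1 rose, in an intron of Gad2. Of the 2 that fell, neither had a peak in a WT DIFF library and 1 had none in any DIFF library, so that it could be tested only through its PRO peaks. When only the 21 regions with a peak in all 10 libraries were tested, the Gad2 intron alone was called. Over all tested regions 10.1% fell and 9.15% rose, so that 8.82% of members were called against 19.2% of all. In p27KO, 0 of 34 were called, where 6.48% of all tested regions fell and 5.83% rose. Each change is a difference of normal scores, made from the rank of a region's fold enrichment within its own list, where a region without a peak took the lowest rank (limma over all tested regions, Benjamini-Hochberg adjusted p under 0.05). Scores rank a region among all tested regions and percentiles among the peaks of its list, so in shorter lists the directions can differ. Among the 21 members with a peak in all 10 libraries the score was higher and the mean percentile lower in DIFF for 5 in WT, the Dlx2 and Sp9 promoters among them, and for 2 in p27KO, with 0 the other way round. The median size of the change in WT was 0.17 for member regions and 0.34 over all tested regions, while in p27KO it was 0.36 for both. At an unadjusted p under 0.05, 3 member regions passed in WT and 4 in p27KO (3 lower, 1 higher), which is 8.82% and 11.8% of them, against 32.1% and 25.7% of all regions.

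**Figure D1:**
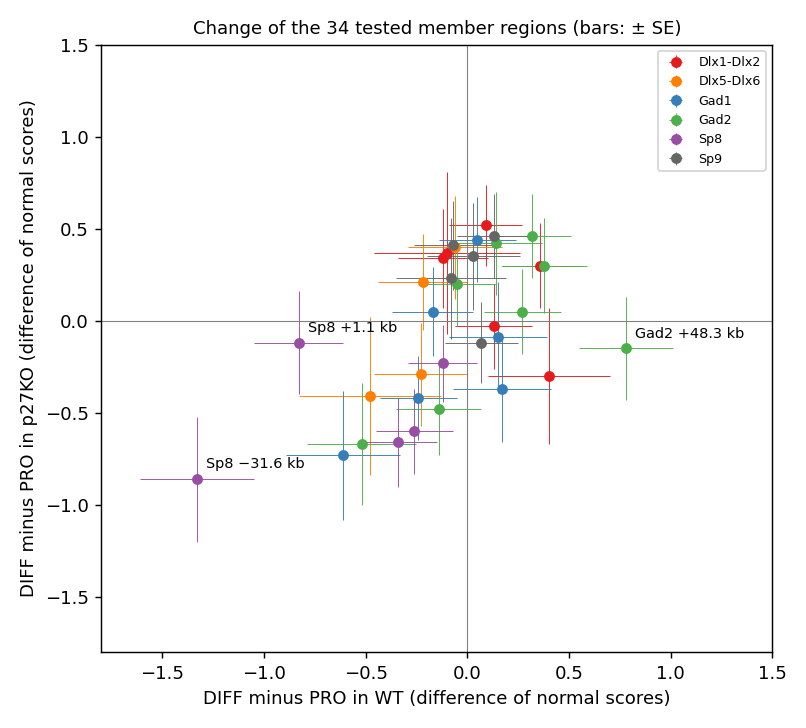
Change in normal score from PRO to DIFF for the 34 tested member regions, with WT on the x axis and p27KO on the y axis, points coloured by window and bars of 1 standard error. The 3 regions called in WT are labelled, and the other 31 lie between -0.61 and 0.40 in WT.

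The difference between genotypes in the response to mitogen withdrawal was called for 0 of 34 member regions, and for 0% of all tested regions (limma, 1 member at an unadjusted p under 0.05). Between p27KO and WT within PRO, 0 of 34 were called, against 0.034% of all regions, and within DIFF 0 of 34, against 0.0156%. A single member passed an unadjusted p under 0.05 in each of these. In PRO it was the region 41.1 kb upstream of Sp9, at percentiles of 66.3, 73.2 and 69.7 in WT and 56.4 and 46.3 in p27KO (change -0.65 ± 0.22 SE, limma, adjusted p = 0.740). In DIFF it was the Sp8 coding exon (0.62 ± 0.25 SE, limma, adjusted p = 0.977).

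Peaks within the windows were fewer in DIFF lists. WT PRO libraries held 44, 41 and 39 member peaks and WT DIFF libraries 24, 29 and 40, while p27KO PRO libraries held 50 and 43 and p27KO DIFF libraries 32 and 34. Only WT DIFF replicate 3, which has the longest list of its group, reached the PRO range. Per 1000 peaks of the list this was 0.528 ± 0.0192 (SD, n = 3) in WT PRO, 0.448 ± 0.0581 (n = 3) in WT DIFF, 0.529 ± 0.0226 (n = 2) in p27KO PRO and 0.469 ± 0.00636 (n = 2) in p27KO DIFF. Averaged over genotypes, DIFF minus PRO was -11.9 peaks. It was -3.42 when each list was limited to its 57534 most enriched peaks. By window, PRO and DIFF counts overlapped in 4 of 6, with 5 to 8 peaks in PRO and 5 to 6 in DIFF libraries at Dlx1 and Dlx2, 6 to 8 and 4 to 10 at Gad1, 10 to 13 and 6 to 11 at Gad2, and 5 to 7 and 4 to 6 at Sp9. They did not overlap at Sp8, with 5 to 8 in PRO and 2 to 4 in DIFF, or at Dlx5 and Dlx6, with 5 to 7 and 2 to 4. Lower DIFF counts without overlap were found in 4.20% of the 18470 windows made in the same way around single protein-coding genes, with at least 20 peaks over the 10 lists, which overlap each other and share the shorter DIFF lists. The window counts were compared after they were seen.

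By presence alone, 5 of the 42 member regions found in 2 or more libraries had a peak in every PRO and no DIFF library of WT (11.9%, against 4.32% of all such regions), and 0 of 42 the reverse (1.86% of all). In p27KO, with 2 libraries a condition, 5 of 42 had a peak in both PRO and no DIFF library (10.9% of all), and 0 of 42 the reverse (3.32% of all). The WT regions were 1.3 kb upstream of Dlx2, the Dlx5 promoter, 102 kb beyond the start of Gad2, and the upstream region and coding exon of Sp8. The p27KO regions were 0.417 kb upstream of Dlx6, 12.8 kb into Gad2, again the region 102 kb beyond the start of Gad2 and the upstream region of Sp8, and a UTR 2.62 kb into Sp8. With lists of equal length 1 region was left in each genotype, the Sp8 upstream region in WT and the one 12.8 kb into Gad2 in p27KO. Without p27KO PRO replicate 2 the p27KO count was 9, and it was also 9 without p27KO DIFF replicate 2, where 1 region had the reverse pattern. No member region had a peak in every library of 1 of the 4 groups and in no other library.

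**Figure D2:**
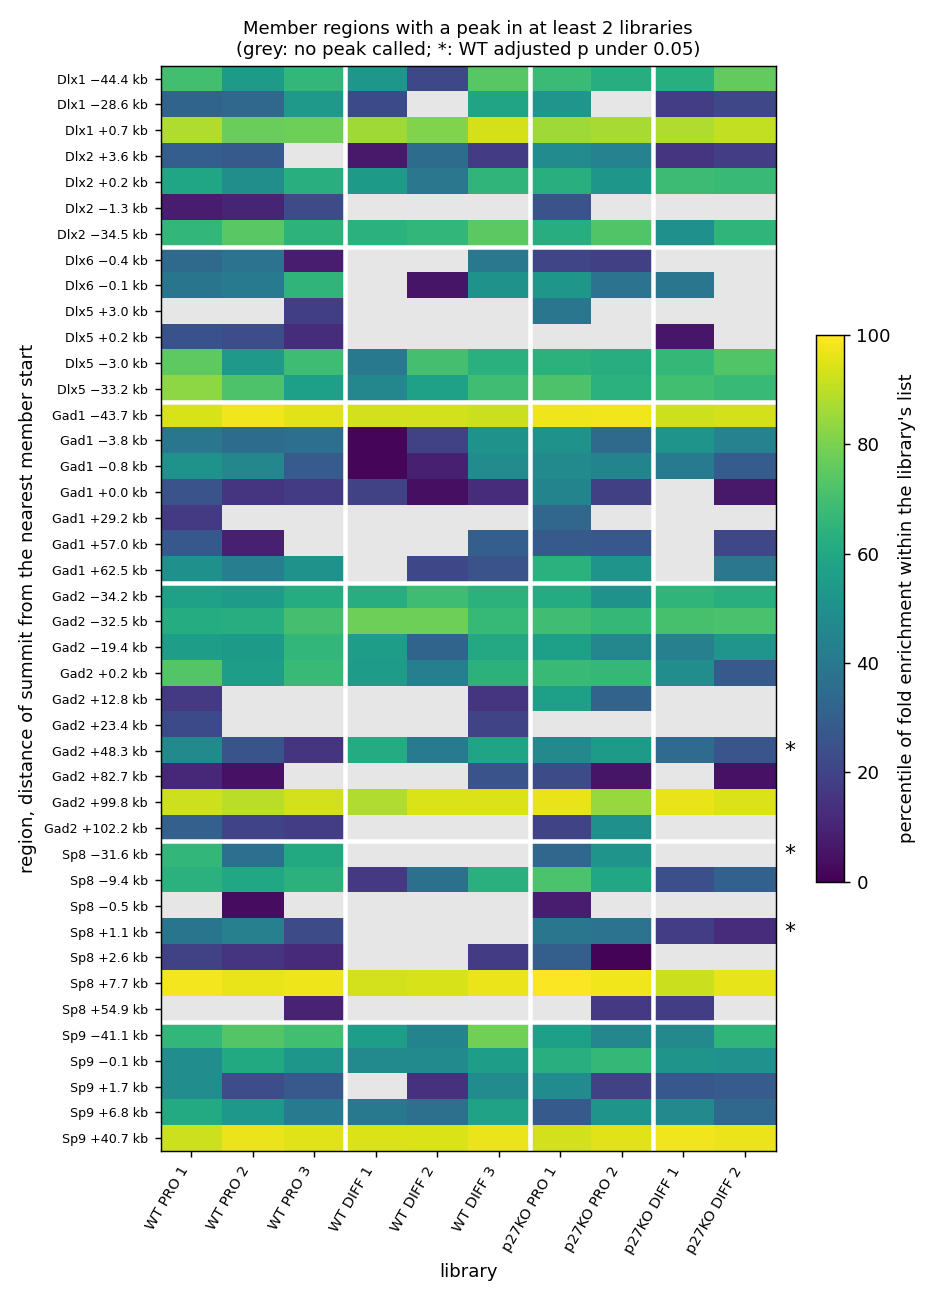
Percentile of fold enrichment within each library's list (colour, 0 to 100) for the 42 member regions found in 2 or more libraries (rows, by distance from the nearest member start) in 10 libraries (columns). Grey cells have no peak, and there are 70 in DIFF and 25 in PRO columns. Stars mark the 3 regions called in WT.

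Promoters of the 8 genes differed in level, while none of the 6 that could be tested was called in either genotype. The level is the percentile of the fold enrichment within the library's list, where 50 is the median peak. In WT PRO libraries the order was Dlx1 at 81.2 ± 6.07 (SD, n = 3), Gad2 at 65.5 ± 8.94, Dlx2 at 57.2 ± 7.16, Sp9 at 54.3 ± 5.85, Dlx6 at 48.4 ± 14.7, Dlx5 at 20.5 ± 6.68 and Gad1 at 19.7 ± 5.36, with Sp8 last. Dlx1 lay above the range of Gad2, and Dlx6 above that of Dlx5. The ranges of Gad2, Dlx2, Sp9 and Dlx6 overlapped from one to the next, as did those of Dlx5 and Gad1. Over the libraries with a peak, the median level was 86.3 at Dlx1 and at most 60.8 at the other 7 promoters, while the median over all other promoters tested was 81.9.

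**Figure D3:**
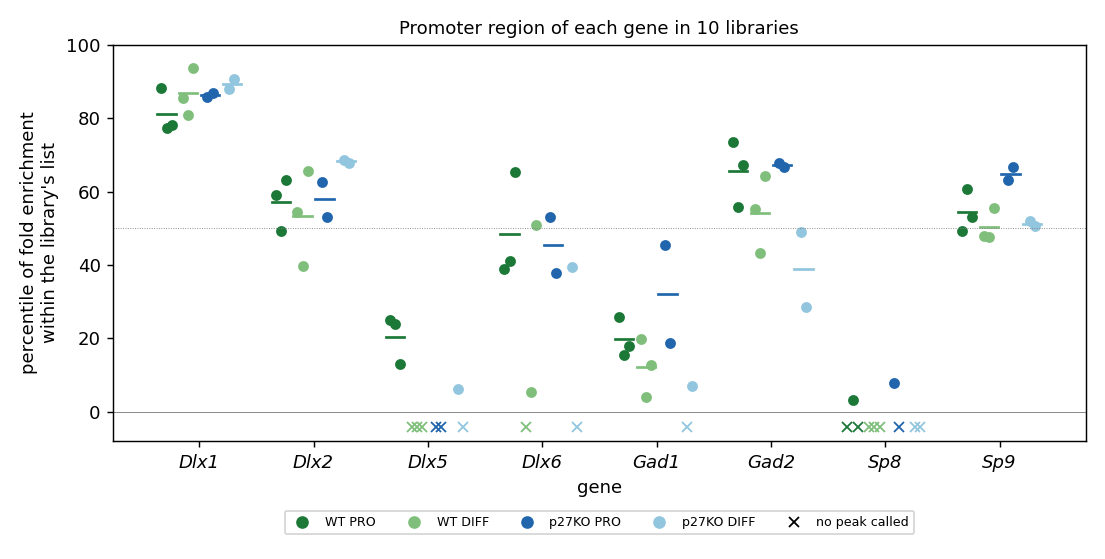
Percentile of the promoter region's fold enrichment within each list (y axis) for the 8 genes, with 1 point a library coloured by group, a bar at the group mean where every library had a peak, and a cross below 0 where no peak was called. Dlx1 stayed between 77.3 and 93.7, Sp8 had a peak in 2 of 10 libraries and Dlx5 in 4 of 10.

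Dlx1 (ENSMUSG00000041911) spans 71528113 to 71533981 of chromosome 2 (GRCm38, plus strand), and Dlx2 (ENSMUSG00000023391) opposite to it on the minus strand at 71543408 to 71546754. The Dlx1 promoter region had its summit 0.657 kb into the gene, in its UTR, where an intron of the antisense transcript Dlx1as also lies. It had a peak in all 10 libraries, at percentiles of 88.2, 77.3 and 78.1 in WT PRO, 85.6, 80.9 and 93.7 in WT DIFF, 85.8 and 86.8 in p27KO PRO, and 88 and 90.7 in p27KO DIFF. The conditions overlapped in WT but not in p27KO, where both DIFF libraries were higher (change 0.36 ± 0.19 SE in WT and 0.30 ± 0.23 in p27KO, limma, adjusted p = 0.225 and 0.471).

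Dlx2 had its promoter summit 0.162 kb into the gene, with percentiles of 59.1, 49.3 and 63.2 in WT PRO and 54.3, 39.7 and 65.5 in WT DIFF. In p27KO it had 62.6 and 53.1 in PRO and 68.6 and 67.7 in DIFF. The groups overlapped in WT and not in p27KO, and neither change passed the test (0.09 ± 0.18 SE and 0.52 ± 0.22, limma, adjusted p = 0.781 and 0.159).

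Between Dlx1 and Dlx2, in 9.43 kb, 1 region had a peak in 9 of 10 libraries, with its summit 3.59 kb from the Dlx2 start and just beyond the end of that gene. This is the sequence printed above with 1 AP-1 and 1 SOX match. Its level was low, at 29.7 and 28.4 in WT PRO, with no peak in replicate 3, and at 7, 35.3 and 17.2 in WT DIFF. In p27KO it was 48.3 and 44.5 in PRO against 14.9 and 18.3 in DIFF. The p27KO groups did not overlap, with DIFF lower, but the change was within its error (-0.30 ± 0.37 SE, limma, adjusted p = 0.664), and in WT it was 0.40 ± 0.30 (adjusted p = 0.392).

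The other regions of the Dlx1 and Dlx2 window were mainly distal. The most enriched was an intergenic region 34.5 kb upstream of Dlx2, at 50.3 to 74.9 in all 10 libraries, whose sequence has 71% G and C and 35 CpG in 300 bases (change 0.13 in WT and -0.03 in p27KO). An intron of the neighbour Metap1d, 44.4 kb upstream of Dlx1, had peaks at 21.8 to 75.9 in all libraries.

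Dlx6 (ENSMUSG00000029754, chromosome 6, plus strand, 6863334 to 6868568) and Dlx5 (ENSMUSG00000029755, minus strand, 6877805 to 6882085) had less regular promoter peaks. The Dlx6 promoter region, over a coding exon and an intron of the antisense transcript Dlx6os1, was found in the 3 WT PRO libraries at 38.9, 41 and 65.4, in 2 of 3 WT DIFF at 5.5 and 51, in both p27KO PRO at 53.1 and 37.9, and in 1 of 2 p27KO DIFF at 39.4. Conditions overlapped in both genotypes, and the changes were -0.48 ± 0.35 SE in WT and -0.41 ± 0.43 in p27KO (limma, adjusted p = 0.383 and 0.601). At Dlx5 the promoter region, over a coding exon, was called in all 3 WT PRO libraries, at 25, 23.8 and 12.9, and otherwise only in p27KO DIFF replicate 1, at 6.22. It had too few peaks to be tested.

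Between Dlx5 and Dlx6, in 9.24 kb, the only peak was called in p27KO PRO replicate 1, at percentile 5.80, 7.79 kb from the Dlx5 start. At this depth the interval thus had no peak in 9 of 10 lists. The steady regions of this window lay upstream of Dlx5. The most enriched was 33.2 kb away, with 82.9, 71.9 and 56.3 in WT PRO, 46.1, 57.4 and 69.2 in WT DIFF, 72.1 and 64 in p27KO PRO and 69.8 and 67.2 in p27KO DIFF. These groups overlapped in both genotypes (change -0.22 in WT and 0.21 in p27KO, limma, adjusted p = 0.529 and 0.674). A region 3.03 kb upstream of Dlx5 had peaks at 40.6 to 75.3 in all 10 libraries.

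Sp8 (ENSMUSG00000048562) spans 118846329 to 118852576 of chromosome 12 (plus strand), and both regions that fell in WT belong to it. The larger fall was 31.6 kb upstream, in intergenic DNA, where the first sequence above was read. Peaks were at 66.3, 36.7 and 60.6 in WT PRO and at 32.9 and 51.9 in p27KO PRO, with fold enrichments of 4.07 to 7.76, and no DIFF library of either genotype had a peak. The change was -1.33 ± 0.28 SE in WT (limma, adjusted p = 0.00653) and -0.86 ± 0.34 in p27KO (adjusted p = 0.134). The test of the difference between genotypes gave 0.48 ± 0.44 (limma, adjusted p = 1), so the fall was not shown to differ between them. The region had peaks in 5 libraries, all of them PRO, so it met the limit of 5 libraries only through the condition where it is high, and its p-values are conditional on that. With lists of equal length it had too few peaks to be tested.

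The other fall was in the coding exon of Sp8, 1.13 kb beyond the nearest start, named here after its values were seen. Percentiles were 38.8, 43.7 and 22.8 in WT PRO, with no peak in WT DIFF, 39.3 and 38 in p27KO PRO, and 18.3 and 12.7 in p27KO DIFF. PRO was higher than DIFF in both genotypes with no overlap. The change was -0.83 ± 0.22 SE in WT (limma, adjusted p = 0.025) and -0.12 ± 0.28 in p27KO (adjusted p = 0.842), and the difference of the 2 changes was 0.71 ± 0.36 (limma, adjusted p = 1). The WT call was lost in 5 of 17 alternatives, among them without WT PRO replicate 1, WT PRO replicate 2 or WT DIFF replicate 3 (adjusted p = 0.0692, 0.0885 and 0.0731), with a range from 0.00954 to 0.302. Its sequence holds 40 CpG and 74.7% G and C.

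Of the further Sp8 regions none passed the test in either genotype. A region 9.41 kb upstream had 63.7, 59.6 and 64.1 in WT PRO against 16.6, 36.8 and 63.5 in WT DIFF, and 71.5 and 60 in p27KO PRO against 24.4 and 31.1 in p27KO DIFF. WT DIFF replicate 3 was within the PRO range and the other 4 DIFF libraries below it (change -0.34 ± 0.19 SE in WT and -0.66 ± 0.24 in p27KO, limma, adjusted p = 0.258 and 0.0966). A region 7.70 kb beyond the Sp8 start, past the end of the gene, ranked among the strongest peaks of every list, at 98.3, 96.8 and 97.5 in WT PRO, 93.3, 94.1 and 97.2 in WT DIFF, 99.4 and 98 in p27KO PRO, and 92.1 and 96.4 in p27KO DIFF. PRO and DIFF overlapped in WT and not in p27KO (change -0.26 ± 0.19 SE and -0.60 ± 0.23, limma, adjusted p = 0.393 and 0.129). The promoter region, with the summit nearest to a start, lay 0.491 kb upstream of that start, in an intron of the annotated gene. It had a peak only in WT PRO replicate 2 at 3.33 and p27KO PRO replicate 1 at 7.75. The coding exon and the UTR region 2.62 kb into Sp8 also lie within 3 kb of a start, with peaks in 7 and 6 libraries.

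**Figure D4:**
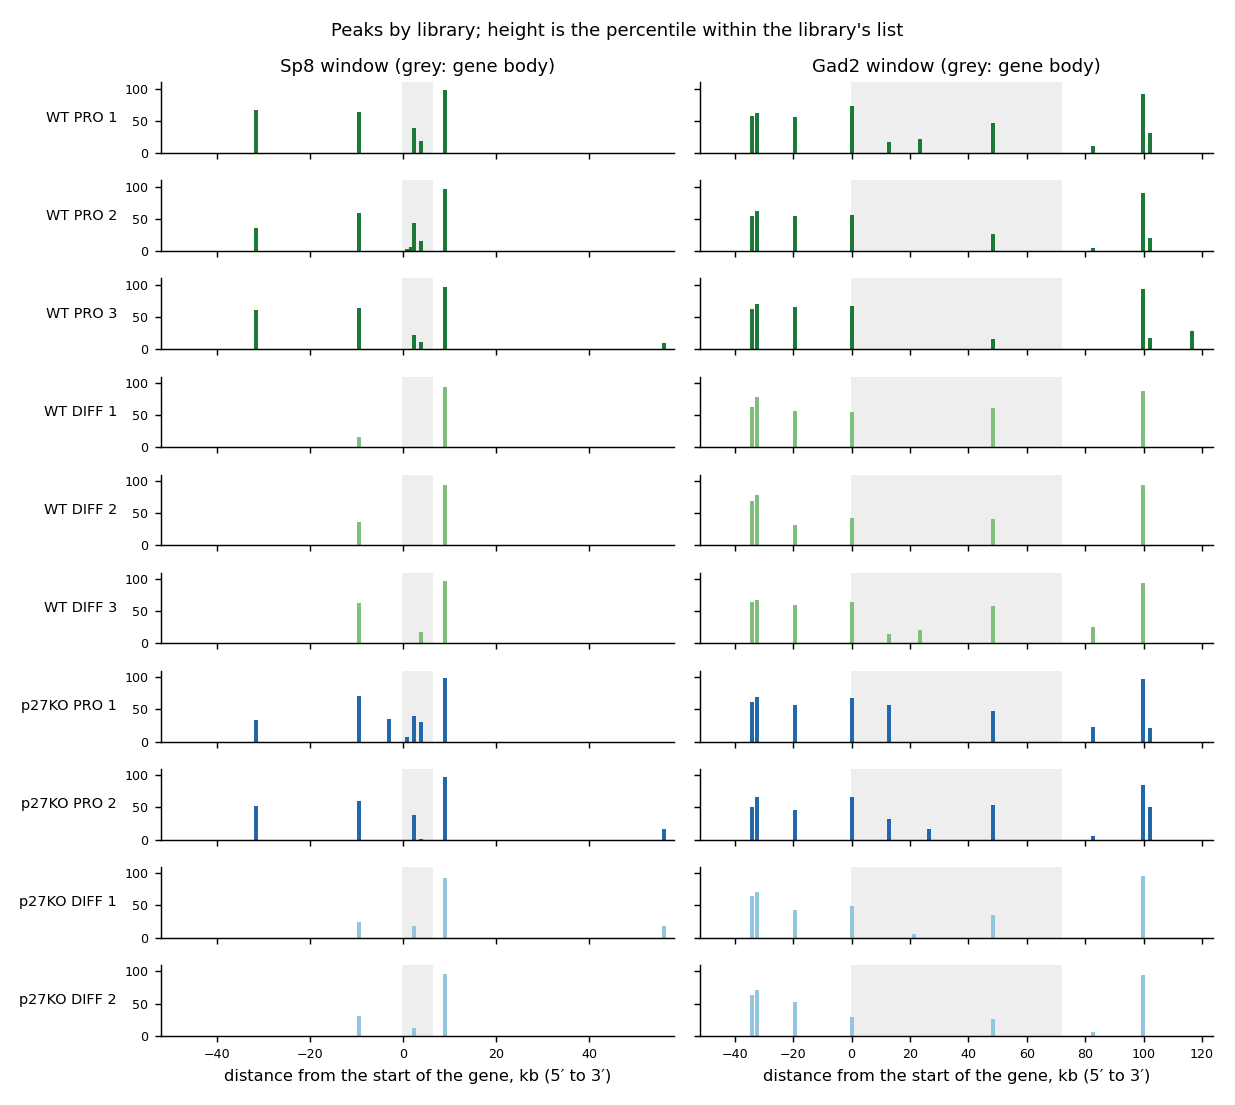
Peaks along the Sp8 and Gad2 windows, by distance in kb from the start of the annotated gene (x axis), with 1 row a library and height the percentile within the list. The Sp8 peak near -31.6 kb and the Gad2 peak near 102 kb appear in the 5 PRO rows and in none of the 5 DIFF rows, while the tall Sp8 peak past the gene is in all 10.

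Sp9 (ENSMUSG00000068859, chromosome 2, plus strand, 73271925 to 73284706) had a steady promoter region with its summit 0.071 kb upstream. Percentiles were 49.2, 60.7 and 53.1 in WT PRO, 47.9, 47.5 and 55.5 in WT DIFF, 63.1 and 66.7 in p27KO PRO and 51.9 and 50.5 in p27KO DIFF. The groups overlapped in WT, and in p27KO DIFF was the lower (change 0.07 ± 0.18 SE and -0.12 ± 0.22, limma, adjusted p = 0.835 and 0.795). The strongest region of the window, at 92.2 to 97.7, was 40.7 kb beyond the Sp9 start, at the shared starts of the neighbours Scrn3 and Cir1.

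Gad2 (ENSMUSG00000026787) on chromosome 2, plus strand, 22622205 to 22693874, encodes the GAD65 enzyme and held the region that rose in WT. Its summit lay in an intron, 48.3 kb into the gene. Percentiles were 47.3, 26 and 15.4 in WT PRO and 61.4, 41.1 and 58.4 in WT DIFF, but 46.9 and 54.3 in p27KO PRO and 34.9 and 26.3 in p27KO DIFF. The conditions overlapped in WT through PRO replicate 1 and DIFF replicate 2, and in p27KO DIFF lay below PRO. The change was 0.78 ± 0.23 SE in WT (limma, adjusted p = 0.036) and -0.15 ± 0.28 in p27KO (adjusted p = 0.794). The difference of the 2 changes was -0.93 ± 0.36 (limma, unadjusted p = 0.0266, adjusted p = 1). The WT call was lost in 6 of 18 alternatives, among them without WT PRO replicate 2 or 3 or WT DIFF replicate 1 or 2 (adjusted p = 0.104, 0.122, 0.125 and 0.0679), with a range from 0.016 to 0.125. The printed sequence has 3 NFI matches.

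The Gad2 promoter region had percentiles of 73.4, 55.8 and 67.2 in WT PRO, 55.2, 43.2 and 64.3 in WT DIFF, 67.7 and 66.7 in p27KO PRO and 49.1 and 28.5 in p27KO DIFF. DIFF was lower without overlap in p27KO and overlapped PRO in WT, and neither change passed (-0.14 ± 0.21 SE and -0.48 ± 0.25, limma, adjusted p = 0.699 and 0.266). The most enriched region of the window was 99.8 kb beyond the start, at 84.7 to 96.5 in all 10 libraries, with no called change (0.14 in WT and 0.42 in p27KO). Its neighbour 102 kb beyond the start had 30.7, 20.1 and 18.1 in WT PRO, 20.7 and 50.1 in p27KO PRO and no peak in DIFF (change -0.52 ± 0.27 SE in WT and -0.67 ± 0.33 in p27KO, limma, adjusted p = 0.204 and 0.222). This neighbour met the limit of 5 libraries only through PRO, where it is high, and its p-values are conditional on that.

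Gad1 (ENSMUSG00000070880, chromosome 2, plus strand, 70553072 to 70602014), the gene of the GAD67 enzyme, had the lowest median level of the tested promoters. Its region, 0.024 kb from the nearest start, had 25.7, 15.4 and 17.9 in WT PRO, 19.8, 3.95 and 12.7 in WT DIFF, 45.3 and 18.8 in p27KO PRO, and 7.02 in p27KO DIFF replicate 2 with none in replicate 1. The levels overlapped in WT, where the mean percentile was lower in DIFF while the mean score was higher (change 0.17 ± 0.24 SE in WT and -0.37 ± 0.29 in p27KO, limma, adjusted p = 0.662 and 0.483). A second region, 0.793 kb upstream of the nearest start and in an intron of Gad1, had a peak in all 10 libraries. Its percentiles were 51.4, 46.4 and 28.7 in WT PRO, 1.33, 8.78 and 48.2 in WT DIFF, 48 and 45 in p27KO PRO, and 41.1 and 29.1 in p27KO DIFF. Its change was not called (-0.17 in WT and 0.05 in p27KO). The strongest region of the window, 43.7 kb upstream at 92.1 to 98, is the promoter of the neighbour Erich2.

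The tested members, which were chosen near genes, were set beside all tested regions, which were not. The median percentile over libraries with a peak was 52.2, against 54.9 over all, and 4 of 34 had a median above 90 (11.8% against 9.70%). In the 300 bases around the summit the median G and C content was 53.7% against 51%, and the median number of CpG was 11 against 4. The homeodomain core was in 3 of 34 (8.82%, against 5.78% of the 70509 tested regions on assembled chromosomes), the E-box in 11 (32.4% against 26.7%), the NFI motif in 11 (32.4% against 23.4%), the SOX motif in 5 (14.7% against 15.4%) and AP-1 in 6 (17.6% against 10.9%).

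Of these, 2 windows held at least 2 AP-1 matches, and they were the Sp8 upstream region and the Gad2 region 102 kb beyond its start. These were also the 2 tested members with a peak in 5 of 5 PRO and 0 of 5 DIFF libraries. Both could be tested only through their PRO peaks. The cut of at least 2 matches and the pattern over both genotypes were not planned, and a link between them was not tested. Over the whole series 2585 tested regions had that pattern, and 34.5% of them held an AP-1 match, with 6.15% holding at least 2, against 10.9% and 0.989% of all tested regions and 7.25% and 0.630% of the 952 regions with the reverse pattern. AP-1 is a dimer of Fos and Jun proteins. A match is a description of letters and not a measured site of binding.

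Promoters of 45 related genes, in lists chosen for this lineage, gave no call in WT or p27KO among those that could be tested, where 0.758% and 0.396% of 14652 promoters were called (limma, adjusted over promoters). Of 18 fate regulators listed for olfactory bulb interneurons, not all particular to that lineage, 14 had a promoter peak in all 10 libraries. Of these 18, 15 were tested, with a median change of 0.25 in WT and 0.19 in p27KO, against 0.12 and 0.14 over all promoters. An unadjusted p under 0.05 was reached by 3 in WT and 1 in p27KO, with both directions in WT. Etv1 and Sall3, transcription factor genes of olfactory bulb interneurons, had changes of 0.47 and 0.45 in WT (limma, adjusted p = 0.243 and 0.312). Isl1, a regulator of cholinergic and striatal neurons, was in both counts, with -0.45 ± 0.20 SE and -0.61 ± 0.25 (limma, adjusted p = 0.332 and 0.466). Of 15 neuroblast and young neuron genes, 13 were tested with medians of -0.07 and 0.16. An unadjusted p under 0.05 was reached by 3 in WT, with changes of 0.63 at Stmn2, 0.55 at Elavl3 and -0.56 at Map1b (limma, adjusted p = 0.196, 0.306 and 0.326). In p27KO it was reached by 1, Elavl3, which encodes a neuronal RNA-binding protein (1.18 ± 0.29 SE, limma, adjusted p = 0.163). Its percentiles were 26 and 3.35 in p27KO PRO and 52.3 and 48.5 in p27KO DIFF, so the size leans on PRO replicate 2.

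Of 12 genes of GABA handling and interneuron types, 9 were tested, with medians of -0.10 in WT and 0.16 in p27KO, and 0 in WT and 2 in p27KO reached an unadjusted p under 0.05. These were Npy, a neuropeptide of interneurons, at -0.94 ± 0.29 SE, and Pvalb, a calcium-binding protein of another interneuron type, at 0.72 ± 0.30 (limma, adjusted p = 0.311 and 0.475). Npy had percentiles of 46.9 and 43.1 in p27KO PRO and no peak in p27KO DIFF. Pvalb had 35.7 and 7.18 in p27KO PRO and 30 and 43.1 in p27KO DIFF, which overlap. Slc32a1, which encodes the transporter that loads GABA into vesicles, had a promoter peak in 5 of 5 PRO and 0 of 5 DIFF libraries, but its region nearest to the start had too few peaks to be tested. Sst and Th had no promoter peak in any library. Isl1, Etv1, Sall3, Stmn2, Elavl3, Map1b, Npy, Pvalb, Slc32a1, Sst and Th were picked from the lists after their values were seen.

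The promoters most like the mean of the tested Dlx1, Dlx2 and Dlx6 promoters, by Pearson r of normal scores over 10 libraries, were those of Ear6 (0.914), Acsf3 (0.895), Dppa1 (0.889), 2210408I21Rik (0.883) and Slf1 (0.883), out of 14646. These points share list length and group, so the values are a description.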

How the data were processed

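Members and gene lists were chosen with earlier results of these data known. The authors clipped reads with Cutadapt and Trimmomatic, mapped them with Bowtie2 to GRCm38, marked duplicates (Picard) and used MACS2 for narrow peaks of each library (no model, false discovery rate 0.05). Versions, read shift and extension size are not given in the sources used here. The deposited lists hold the fold enrichment, a ratio of summit pileup to local background, and the authors' −log10 p-value and −log10 q-value, of which the lowest was 1.3. Depth per library is unknown.

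Peaks were merged across libraries at an overlap of 1 bp, and each region took its highest fold enrichment per library. Ranks within a list became normal scores, which entered limma 3.58.1 (R 4.3.3) as 1 mean for each group with a shared spread. The test was also tried on simulated scores with normal noise and no absent peaks. That trial does not bear on calls at regions that lack peaks in some libraries. The authors' DiffBind test needs alignments, which were not used here. Promoters were regions with a summit within 3 kb of a protein-coding start in GENCODE M21 (M18 for the authors), and p-values came from the fit over all regions, adjusted over promoters. Only the region nearest to a start was tested, while counts of libraries with a promoter peak at marker and related genes took in other peaks as well.

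Named were each gene's promoter, those between paired Dlx genes, the most enriched other region of each window, and those called with the largest fall or rise. Other names were picked after their values were seen, among them the regions given by presence. Sequences came from the GRCm38 reference of NCBI, free of annotated UTR. The labels number the libraries of a group as replicates, and no 2 shared a peak with the same ends and fold enrichment. The paper's methods call the libraries biological replicates. Whether these came from separate mice is not given, so p-values measure the spread between these libraries. Alternatives changed the ranking value, the filter, list length, the window (10 kb), the merging, the replicate block and the libraries used.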

Additional observations from a re-analysis of the deposited data

How the results depend on the processing

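The counts of member regions called between genotypes and for the interaction were 0 under every alternative run. In WT the count of 3 was 1 when only regions with a peak in all 10 libraries were tested, which leaves out both Sp8 regions, and 1 with lists of equal length, and leaving out a library gave 1 to 3. The lowest was without WT PRO replicate 2, where the Sp8 upstream region alone was called. With a −log10 q-value of at least 5 the count was 3, but the region 62.5 kb beyond the Gad1 start stood in place of the Sp8 coding exon. In p27KO the count of 0 was 1 with regions of at least 2 libraries (the one 12.8 kb into Gad2), and it stayed 0 whichever library was left out.

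Whether replicate numbers pair the libraries was not settled. In WT, same-numbered deviations correlated at 0.0328 to 0.0647 and differently numbered ones at -0.0508 to -0.00477. In p27KO the values were -0.141 and 0.141. These cannot decide it, since 2 libraries deviate from their mean by equal and opposite amounts. With the replicate block, 3 member regions were called in WT and 0 in p27KO, as with the p27KO numbers crossed, an alternative chosen after seeing the data.

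Regions present in PRO only numbered 1 with equal lists, 3 with the stricter q-value and 3 with a window of 10 kb, in each genotype, and 5 to 7 in WT and 5 to 9 in p27KO when a library was left out (6 to 10 in p27KO with regions present in DIFF only, of which there was at most 1). DIFF minus PRO in member peaks was -3.42 with equal lists, and -14.2 to -10.2 when a library was left out. Promoters of related genes had 1 call in p27KO, Elavl3, when limma was fitted on promoters alone, an alternative added after seeing the data. Among changes at named regions, only the 3 called in WT had a call to lose. With libraries left out included, the call was lost in 6 of 18 alternatives at the Gad2 intron and 5 of 17 at the Sp8 coding exon. It was lost in 0 of 16 at the Sp8 upstream region, a count that leaves out alternatives where this region could not be tested. Those were lists of equal length and the filter of a peak in all 10 libraries. The Sp8 upstream region passed the filter only through its PRO peaks, so its count is not a measure of how firm the call is. None of the 3 turned its direction. Reads per library are unknown, so a peak that is missing from a short list was not shown to be absent.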
